A study of Mus musculus with 3 samples.

Results

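Collagens are the main structural proteins of the extracellular matrix, and each collagen molecule is built from alpha chains that are encoded by separate genes. The genes described here are the 44 rows, of 42258 in the deposited tables, whose gene symbol is Col, a number, the letter a and a number, as in Col1a1. Of these, 31 had a mean of at least 1 CPM (counts scaled to a fixed library total) over the 3 libraries of the study and were compared, as were 12966 genes in all. The 31 chains were 10 of 11 fibrillar, 5 of 6 basement membrane, 4 of 6 beaded and 12 of 21 other chains.

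The study sequenced RNA of 2 calf muscles, the gastrocnemius and the plantaris, of male mice. The young library pooled RNA of 3 mice aged 24 weeks, of a strain labelled C57BL/7J, whose diet is not given. The aged control library pooled RNA of 6 C57BL/6J mice aged 87 weeks, which for the last 12 weeks had eaten a diet deprived of EPA, the fish-oil fatty acid eicosapentaenoic acid. The aged EPA library pooled RNA of 6 C57BL/6J mice of the same age, whose diet over these weeks held 1 wt% EPA. Age and the strain label therefore cannot be told apart in the comparison with young mice, nor can age and diet. Each group is 1 library, so no test between groups was possible. Differences are given by size, with 95% exact Clopper-Pearson intervals of count ratios that cover counting error only and not the spread between mice or preparations.

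The recovered depth was between 55969822 and 57622886 counts a library. Markers of skeletal muscle fibres were abundant in each library, with 12 listed genes summing to between 137105 and 156279 CPM, and none of them was at 0. Mitochondrially encoded genes made up 22.7% of the young, 21.2% of the aged control and 19.7% of the aged EPA library. Collagen is made chiefly by fibroblasts and related interstitial cells, and in part by endothelial and other cells. In whole-muscle RNA, fewer cells of a type and less RNA per cell cannot be told apart.

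In muscle, fibrillar collagens of types I and III form the fibrils of the connective tissue around fibres and bundles, and types V and XI regulate how fibrils start and how thick they grow. Type IV collagen forms the network of the basement membrane around each fibre and capillary. Type VI collagen assembles into beaded filaments that link the basement membrane to the interstitial matrix. The other chains include those that bind to fibril surfaces, the multiplexins of basement membrane zones, and chains that span the cell membrane.

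The promoters of the most abundant chains with a window, and of the low chain Col4a4 from a second head-to-head pair, are shown because the genes differ in arrangement: the type IV genes lie head to head in pairs, whereas Col1a2 and Col3a1 each have a start of their own. RefSeq windows on build GRCm38.p6, from 250 bases before to 50 after a RefSeq start of the gene, were found for 35 of the 44 chains and 25 of the 31 compared. None was found for Col1a1. Sequences read 5′ to 3′ along the gene's own strand, and capitals mark CCAAT (the CCAAT box), TATAAA (the TATA box) and GGGCGG (the GC box) or their reverse complements, searched on both strands. The windows are Col1a2 at chr6:4505368-4505667 (plus strand), Col3a1 at chr1:45311288-45311587 (plus), Col4a1 at chr8:11312777-11313076 (minus), Col4a2 at chr8:11312555-11312854 (plus) and Col4a4 at chr1:82586800-82587099 (minus).
Col1a2: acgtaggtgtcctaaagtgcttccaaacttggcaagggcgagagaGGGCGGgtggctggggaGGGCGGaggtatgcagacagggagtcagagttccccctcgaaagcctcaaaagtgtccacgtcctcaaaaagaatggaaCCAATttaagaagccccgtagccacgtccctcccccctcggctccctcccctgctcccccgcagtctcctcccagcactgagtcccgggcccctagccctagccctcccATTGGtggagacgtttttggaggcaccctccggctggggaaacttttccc
Col3a1: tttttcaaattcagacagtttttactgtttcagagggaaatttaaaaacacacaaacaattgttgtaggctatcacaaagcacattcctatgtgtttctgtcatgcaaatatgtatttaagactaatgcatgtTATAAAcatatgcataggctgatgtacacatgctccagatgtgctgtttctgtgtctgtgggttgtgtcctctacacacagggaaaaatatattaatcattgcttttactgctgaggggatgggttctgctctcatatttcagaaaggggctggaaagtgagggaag
Col4a1: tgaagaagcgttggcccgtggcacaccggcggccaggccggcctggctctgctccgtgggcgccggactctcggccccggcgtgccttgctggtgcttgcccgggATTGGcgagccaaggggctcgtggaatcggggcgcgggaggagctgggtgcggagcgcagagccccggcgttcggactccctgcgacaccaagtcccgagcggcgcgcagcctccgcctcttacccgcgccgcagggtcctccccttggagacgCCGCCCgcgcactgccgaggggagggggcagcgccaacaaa
Col4a2: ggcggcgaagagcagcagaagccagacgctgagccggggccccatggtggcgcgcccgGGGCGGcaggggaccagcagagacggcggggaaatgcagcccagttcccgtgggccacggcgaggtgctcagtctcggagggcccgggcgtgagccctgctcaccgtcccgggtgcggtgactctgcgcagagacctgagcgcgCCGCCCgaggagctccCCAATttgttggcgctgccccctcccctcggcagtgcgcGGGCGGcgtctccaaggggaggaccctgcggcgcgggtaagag
Col4a4: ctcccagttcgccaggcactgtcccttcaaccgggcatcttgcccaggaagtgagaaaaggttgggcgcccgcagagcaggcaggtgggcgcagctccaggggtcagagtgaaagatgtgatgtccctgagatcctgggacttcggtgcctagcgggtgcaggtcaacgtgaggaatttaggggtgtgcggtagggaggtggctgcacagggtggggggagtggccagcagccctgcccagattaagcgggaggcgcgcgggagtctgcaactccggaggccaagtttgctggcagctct

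The windows of Col4a1 and Col4a2 shared 78 bases, read on opposite strands, and the annotated genes (GENCODE M21) overlapped by 22 bases at their starts. The starts of Col4a4 and Col4a3 lay 72 bases apart on chromosome 1, and those of Col4a6 and Col4a5 lay 1309 bases apart on chromosome X. The Col1a2 window begins at 4505368, after the GENCODE M21 start of the gene at 4504814, so distances in it count from another start. Before that start it held CCAAT at 109 bases and GGGCGG at 205 and 188 bases, and at that start the reverse complement of CCAAT. The Col3a1 window held TATAAA 117 bases before the start and neither of the other motifs. In the Col4a2 window, CCAAT lay 32 bases before the start, whereas the Col4a4 window held none of the 3 motifs. GGGCGG was present in 18 of 28 windows of compared chains (64.3%) and in 35.7% of all 32851 windows, CCAAT in 10 of 28 (35.7%) and in 37.4%, and TATAAA in 2 of 28 (7.14%) and in 13.6%. A match describes letters in the window and is not a measured binding site.

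The fibrillar chains of types I and III, which make up most of the fibrils, were lower in the aged control than in the young library and lower again in the aged EPA library. The same order of the 3 libraries held for 8 of 10 fibrillar chains as deposited, beside 22.1% of all compared genes. With own library totals it held for 7 (without Col24a1), beside 18.0%. The counting intervals of aged control against young and of aged EPA against aged control both lay below 0 only for Col1a1, Col1a2, Col3a1 and Col5a3. Counts of fibrillar chains together were 1.28-fold lower in aged control than young (log2 count ratio -0.35, 95% counting interval -0.37 to -0.33) and 1.16-fold lower in aged EPA than aged control (-0.21, -0.24 to -0.19). Summed deposited CPM of the class went from 718 in young to 575 in aged control and 475 in aged EPA. Over the same libraries, 12 markers of fibroblasts and fibro-adipogenic progenitors summed to 2246, 2157 and 2324 CPM, with none at 0. Gsn, an actin-severing protein made by many cell types and named after its values were seen, gave 1572, 1539.8 and 1682 CPM of these sums, and the other 11 markers summed to 673, 617 and 642 CPM. Of the 12 markers, 3 were lower by at least 0.32 on the log2 scale of CPM + 1 (Ly6a, Pi16 and Cxcl14) and 2 were higher (Dpp4 and Lum) in aged control than young, beside 10.4% lower and 9.13% higher among all compared genes. In aged EPA against aged control, 1 was lower (Lum) and 1 higher (Ly6a), beside 7.38% and 5.38% of all genes. With own library totals 0 were lower and 3 higher between the aged libraries (Ly6a, Pi16 and Cxcl14), beside 5.84% and 6.74%. Ly6a, the surface antigen Sca-1, was at 60.7 CPM in young, 21.3 in aged control and 49.3 in aged EPA. The chemokine gene Cxcl14 was at 125, 76.2 and 92.8 CPM, Pi16 at 56.3, 41.2 and 50.8 CPM and the peptidase gene Dpp4 at 6.91, 9.73 and 9.76 CPM. Pdgfra, a defining marker of these cells, was at 41.0, 43.4 and 42.5 CPM, so that the markers of the list differed in size and direction. The part of cell numbers in the collagen differences was not tested.

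Col3a1 encodes the only chain of type III collagen, the collagen of fine reticular fibrils (ENSMUSG00000026043, chromosome 1, 45311538 to 45349706 on GRCm38). Its level was 217 CPM in young, 150.01 in aged control and 110.0 in aged EPA. Its counts were 1.48-fold lower in aged control than young (log2 count ratio -0.57, counting interval -0.61 to -0.53), 1.302-fold lower in aged EPA than aged control (-0.38, -0.43 to -0.33) and 1.93-fold lower in aged EPA than young (-0.95, -0.99 to -0.90). Among the 31 chains this was the largest difference downwards between aged EPA and young.

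Col1a1 and Col1a2 encode the chains of type I collagen. Col1a1 (ENSMUSG00000001506, chromosome 11, 94936224 to 94953042) was at 171 CPM in young, 134 in aged control and 107 in aged EPA. Its log2 count ratio was -0.39 (-0.44 to -0.35) for aged control against young and -0.26 (-0.31 to -0.21) for aged EPA against aged control. Col1a2 (ENSMUSG00000029661, chromosome 6, 4504814 to 4541544) was at 204, 176 and 156 CPM in the same order, with ratios of -0.24 (-0.28 to -0.21) and -0.11 (-0.15 to -0.07). Both chains were thus ordered young, aged control, aged EPA from high to low, with the smaller differences in Col1a2.

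Within a library, the ratio of Col1a1 to Col1a2 counts was 0.842 in young (counting interval 0.820 to 0.865), 0.759 in aged control (0.736 to 0.782) and 0.683 in aged EPA (0.662 to 0.706). Col3a1 over Col1a1 was 1.26 in young (1.231 to 1.298), 1.12 in aged control (1.09 to 1.16) and 1.03 in aged EPA (0.995 to 1.07). In both ratios the library intervals did not overlap, so that Col3a1 differed most between libraries, Col1a1 less and Col1a2 least. A ratio within a library does not depend on the library total.

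Type V chains, which are built into type I fibrils and limit their width, differed from one another. Col5a2 was at 35.2 CPM in young, 26.2 in aged control and 24.6 in aged EPA, a log2 count ratio of -0.47 (-0.57 to -0.37) between aged control and young and of -0.04 (-0.14 to 0.07) between aged EPA and aged control. Col5a1, its partner in the common form of type V, was at 41.1, 40.9 and 34.4 CPM, with ratios of -0.05 (-0.13 to 0.03) and -0.19 (-0.28 to -0.11). So the young and aged control libraries differed in Col5a2 and were within counting error in Col5a1. Of these 2 chains, only Col5a1 had an interval that excluded 0 between the aged libraries, but the intervals of the 2 chains overlapped. The count ratio of Col5a1 to Col5a2 was 1.17 (1.10 to 1.24), 1.56 (1.46 to 1.66) and 1.40 (1.305 to 1.499). Col5a3, the third chain of the type, was at 36.1, 32.0 and 29.0 CPM, with log2 count ratios of -0.15 (-0.24 to -0.06) and -0.13 (-0.23 to -0.04).

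The type XI chains, known mainly from cartilage fibrils, went in opposite directions between aged control and young. Col11a2 (chromosome 17, 34039437 to 34066685) was at 4.54 CPM in young, 8.36 in aged control and 7.09 in aged EPA, 1.87-fold higher in aged control than young (log2 count ratio 0.90, 0.68 to 1.13). Col11a1 was at 2.50, 1.38 and 1.43 CPM, 1.79-fold lower (-0.84, -1.26 to -0.43). These are low levels: the Col11a1 counts were 141, 79 and 80. The ratio of Col11a2 to Col11a1 counts was 1.82 (1.48 to 2.25) in young, 6.10 (4.80 to 7.84) in aged control and 5.0 (3.92 to 6.44) in aged EPA. The minor fibrillar chains Col24a1 (4.16, 3.996 and 3.97 CPM) and Col27a1 (2.45, 2.23 and 1.70 CPM) were within counting error between young and aged control.

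**Figure D1:**
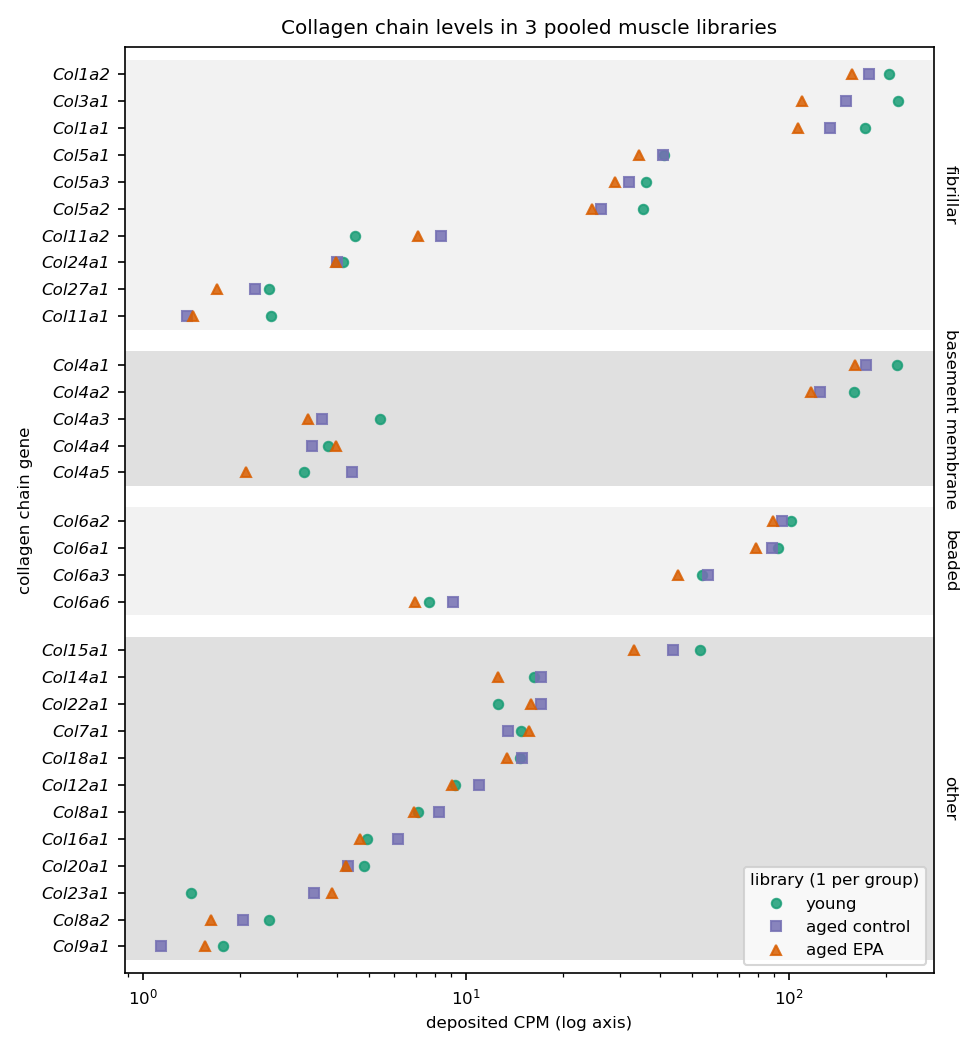
Deposited CPM of the 31 compared chains on a log axis, by class, with 1 point for each of the 3 pooled libraries (young, aged control, aged EPA). For Col3a1, Col1a1 and Col1a2 the points run from young at 217, 171 and 204 CPM down to aged EPA at 110.0, 107 and 156 CPM, while Col11a2, Col22a1 and Col23a1 have young as the lowest point.

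In the basement membrane class, the chains of the main network, Col4a1 and Col4a2, were lower in both aged libraries than in young and differed little between the aged libraries. Col4a1 (ENSMUSG00000031502, chromosome 8, 11198423 to 11312826) was at 215 CPM in young, 173 in aged control and 160 in aged EPA. Col4a2 (ENSMUSG00000031503, chromosome 8, 11312805 to 11449287) was at 159, 124 and 117 CPM. Their log2 count ratios for aged control against young were -0.35 (-0.39 to -0.31) and -0.34 (-0.38 to -0.29), and for aged EPA against aged control -0.05 (-0.087 to -0.0047) and -0.08 (-0.13 to -0.03). The count ratio of Col4a1 to Col4a2 was 1.38 (1.34 to 1.42), 1.36 (1.32 to 1.40) and 1.40 (1.35 to 1.44), with overlapping intervals in all 3 libraries. This head-to-head pair thus kept one proportion within counting error while both genes differed between young and the aged libraries. Endothelial cells are a major source of these chains, and 12 endothelial markers summed to 727, 609 and 558 CPM with none at 0. Of these markers, 6 were lower by the limit of 0.32 in aged control than young and 0 higher, beside 10.4% and 9.13% of all genes, and with own library totals 5 were lower, beside 10.5% lower and 8.78% higher. In aged EPA against aged control 1 was lower (Flt1) and 1 higher (Cldn5), beside 7.38% and 5.38%. Cdh5, the cadherin of endothelial junctions, was at 128, 99.2 and 93.2 CPM. Cldn5, a sealing protein of the contacts between these cells, had 24.1, 9.22 and 13.0 CPM. The adhesion molecule gene Esam was at 41.3, 27.1 and 27.03 CPM, and Flt1, a receptor of vascular endothelial growth factor, at 116, 109.8 and 82.2 CPM. The part of these cells in the type IV differences was not tested.

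The second pair, Col4a3 and Col4a4, encodes chains of a network found in specialised basement membranes, and its proportion differed. Col4a3 was at 5.43 CPM in young, 3.58 in aged control and 3.24 in aged EPA, 1.56-fold lower in aged control than young (log2 count ratio -0.64, -0.90 to -0.38). Col4a4 was at 3.75, 3.34 and 3.95 CPM, a ratio of -0.16 (-0.45 to 0.13) between aged control and young. The count ratio of Col4a3 to Col4a4 was 1.49 (1.247 to 1.784) in young, 1.07 (0.872 to 1.31) in aged control and 0.816 (0.669 to 0.994) in aged EPA, so that the interval of young did not overlap that of aged EPA.

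Col4a5, which joins Col4a3 and Col4a4 in that network, had another pattern (ENSMUSG00000031274, chromosome X, 141475385 to 141689234). It was highest in aged control at 4.44 CPM (249 counts), against 3.15 CPM in young (181 counts) and 2.09 CPM in aged EPA (118 counts). Its counts were 1.37-fold higher in aged control than young (log2 count ratio 0.45, 0.17 to 0.74) and 2.05-fold lower in aged EPA than aged control (-1.04, -1.36 to -0.71). Of the 31 chains, Col4a5 had the largest difference between the aged libraries. Its head-to-head partner Col4a6 was at 0 in all 3 libraries, which allows up to 3 counts, or 0.0536 CPM in the shallowest library.

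Type VI chains, whose loss causes muscle disease in humans, were at similar summed levels in young and aged control, while single chains differed in direction. Col6a1 was at 92.1 CPM in young, 88.4 in aged control and 78.8 in aged EPA. Its partner Col6a2 was at 101, 95.3 and 89.1 CPM. Col6a3, the longest of the main chains, was at 53.6, 56.0 and 45.3 CPM, and Col6a6 at 7.69, 9.15 and 6.98 CPM. All 4 were lowest in aged EPA. The summed log2 count ratio of the class was -0.01 (-0.05 to 0.02) for aged control against young and -0.15 (-0.18 to -0.11) for aged EPA against aged control. In aged control against young, single ratios were -0.05 (-0.11 to 0.004) for Col6a1 and -0.07 (-0.12 to -0.01) for Col6a2. They were 0.09 (0.01 to 0.16) for Col6a3 and 0.27 (0.09 to 0.46) for Col6a6.

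Single type VI chains did not follow one another fully. Between the aged libraries the log2 count ratio was -0.30 (-0.37 to -0.22) for Col6a3 and -0.38 (-0.57 to -0.19) for Col6a6, but -0.10 (-0.15 to -0.04) for Col6a1 and -0.09 (-0.14 to -0.03) for Col6a2. Col6a1 over Col6a2 counts gave 0.900, 0.909 and 0.904 in young, aged control and aged EPA, with overlapping intervals. Col6a3 over Col6a1 was 0.588 (0.562 to 0.615), 0.647 (0.619 to 0.676) and 0.563 (0.536 to 0.591), highest in aged control. Col6a3 was above 0 in aged control against young as deposited (log2 change 0.06 of CPM + 1), and below 0 at -0.02 once the trend of the change with transcript length was subtracted.

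**Figure D2:**
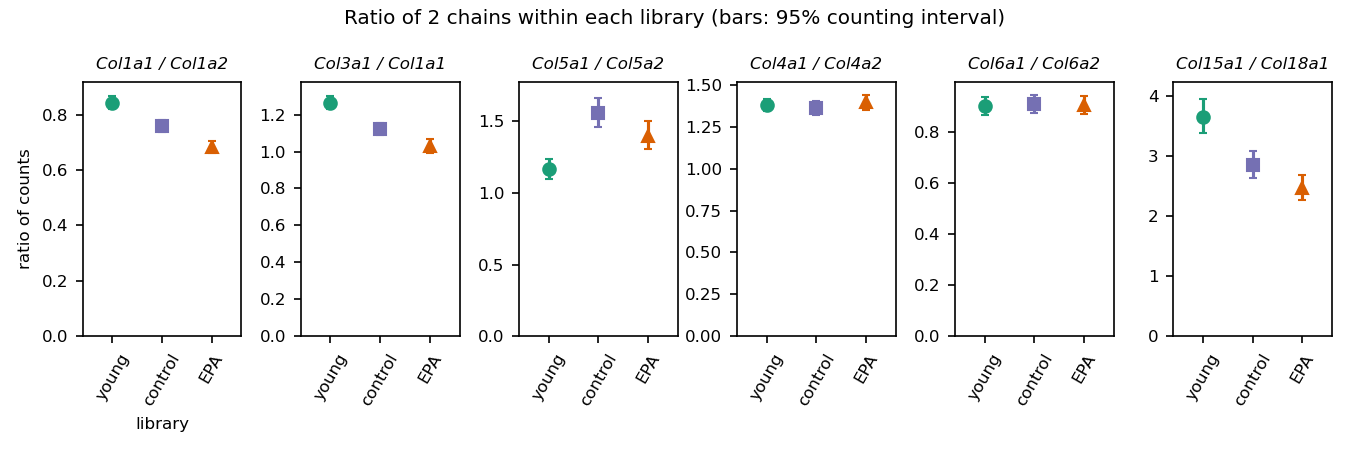
Count ratio of 6 pairs of chains in each library (young, aged control, aged EPA), with bars for the 95% counting interval and axes from 0. Col1a1 over Col1a2 goes from 0.842 to 0.759 and 0.683 and Col15a1 over Col18a1 from 3.66 to 2.85 and 2.47, whereas Col4a1 over Col4a2 stays between 1.36 and 1.40 and Col6a1 over Col6a2 between 0.900 and 0.909.

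Among the other chains, the multiplexin Col15a1, found where basement membranes meet the interstitial matrix of muscle fibres and capillaries, was the most abundant (ENSMUSG00000028339, chromosome 4, 47208161 to 47313167). It was at 53.2 CPM in young, 43.8 in aged control and 33.0 in aged EPA. Its log2 count ratio was -0.32 (-0.40 to -0.24) for aged control against young and -0.35 (-0.44 to -0.27) for aged EPA against aged control. The other multiplexin, Col18a1, from which endostatin is released, was at 14.7, 14.9 and 13.4 CPM. The ratio of Col15a1 to Col18a1 counts was 3.66 (3.39 to 3.96), 2.85 (2.64 to 3.09) and 2.47 (2.27 to 2.69), lower in both aged libraries than in young.

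The fibril-associated chains coat fibrils and link them to their surroundings. Of the 6 compared, 4 were above 0 and 2 below in aged control against young, with a median log2 change of 0.14. Of the fibrillar chains 9 of 10 were below 0, beside 52.4% of all genes. The counting interval lay above 0 for 3 of the 6 and below 0 for 1, beside 25.5% and 29.7% of all genes. A class of 6 genes is small for such shares. Over the processing alternatives the change ran from 0.06 to 0.24 for Col12a1 and from -0.001 to 0.09 for Col14a1. For Col16a1 (0.17 to 0.335) and Col22a1 (0.33 to 0.44) it stayed above 0. Col22a1, a chain of the junction between muscle and tendon, was at 12.6 CPM in young, 17.1 in aged control and 15.9 in aged EPA, 1.32-fold higher in aged control than young (log2 count ratio 0.40, 0.26 to 0.54). Col12a1 was at 9.28, 10.96 and 9.07 CPM, Col14a1 at 16.2, 17.0 and 12.6 CPM and Col16a1 at 4.94, 6.15 and 4.70 CPM. As deposited, these last 3 were highest in aged control and lowest in aged EPA. With own library totals Col12a1 and Col16a1 were as low in young as in aged EPA. Col14a1 was 1.29-fold lower in aged EPA than aged control (-0.37, -0.51 to -0.23) and for Col16a1 the ratio was -0.32 (-0.55 to -0.09).

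The remaining chains of the class were low or differed little. Col23a1, a membrane-spanning chain (chromosome 11, 51289920 to 51583918), was at 1.41 CPM in young, 3.38 in aged control and 3.86 in aged EPA, from 80, 195 and 218 counts. At 2.43-fold higher in aged control than young (log2 count ratio 1.28, 0.90 to 1.67) it had the largest difference upwards of the 31 chains in that comparison. Col9a1 was at 1.78, 1.14 and 1.56 CPM and Col8a2 at 2.46, 2.04 and 1.62 CPM. Col8a1, of the same short-chain network, was at 7.11, 8.26 and 6.89 CPM. Col7a1, of anchoring fibrils, was at 14.8, 13.5 and 15.7 CPM. Col20a1 was at 4.84, 4.33 and 4.25 CPM, with 79 exon bases shared on the same strand with the gene 9230112E08Rik, so that its reads may be split between the genes.

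The chains were also counted by the log2 change of CPM + 1, with a difference of 0.32 as the limit for calling a chain lower or higher. Between aged control and young, 7 of 31 chains were lower (Col1a1, Col3a1, Col5a2, Col11a1, Col4a2, Col4a3 and Col9a1) and 4 were higher (Col11a2, Col22a1, Col23a1 and Col4a5). Among all 12966 genes, 10.4% were lower and 9.13% higher by the same limit. The median change of the chains was -0.10, against -0.01 for all genes, and 20 of 31 chains (64.5%) were below 0, beside 52.4% of all genes. By class, the median was -0.19 for fibrillar, -0.31 for basement membrane, 0.00 for beaded and 0.04 for other chains, and the sign of the last 2 depended on the processing (-0.05 to 0.06 and -0.05 to 0.13 over the alternatives). The counting interval lay below 0 for 12 chains (38.7%) and above 0 for 8 (25.8%), beside 29.7% and 25.5% of all genes.

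Between aged EPA and aged control, 7 of 31 chains were lower (Col1a1, Col3a1, Col4a5, Col6a6, Col14a1, Col15a1 and Col16a1) and 0 were higher, beside 7.38% lower and 5.38% higher among all genes. The median change was -0.16, against -0.03 for all genes, and 26 of 31 chains (83.9%) were below 0, beside 55.8% of all genes. This comparison depended on scaling: the recovered counts, each divided by its own library total, gave 5 lower chains, without Col1a1 and Col16a1, beside 5.84% lower and 6.74% higher among all genes. Scaling by a trimmed mean of log ratios gave 4 lower chains (12.9%), beside 6.31% lower and 6.56% higher among all genes. Deposited values differed from CPM over the own library total by -2.98% to -0.115% in aged EPA, by -0.111% to 2.84% in aged control and by -0.521% to 2.41% in young. The counting intervals, which use the own totals, lay below 0 for 18 chains (58.1%) and above 0 for 3 (9.68%), beside 20.9% and 25.4% of all genes.

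Transcript length moved with this comparison. The longest transcripts of all 31 chains exceeded the median of all compared genes (3302 bases), with a median of 6450 bases. Across genes, Spearman's rho between transcript length and the log2 change was -0.22 for aged EPA against aged control and 0.28 for aged control against young. The points share their libraries and genes are not replicates. With the length trend of all genes subtracted, 2 chains were lower in aged EPA than aged control (Col3a1 and Col4a5), which is 6.45% of the chains beside 6.05% of all genes, so that the share of lower chains was near that of all genes. The median was then -0.11, and 21 chains (67.7%) were below 0, beside 49.9% of all genes. In aged control against young the same subtraction gave 8 lower chains (25.8%, beside 8.61% of all genes) and a median of -0.18. What else transcript length stands for in these libraries was not tested.

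Between aged EPA and young, 13 of 31 chains were lower and 2 (Col11a2 and Col23a1) were higher, beside 11.7% and 7.43% of all genes (9.26% and 9.34% with trimmed-mean scaling, which gave 12 and 3 chains). The lower chains were the 7 of aged control against young without Col9a1, and Col1a2, Col4a1, Col4a5, Col8a2, Col14a1, Col15a1 and Col27a1. The median change was -0.24, against -0.04 for all genes. The 3 comparisons share their libraries, so they are not independent of one another.

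**Figure D3:**
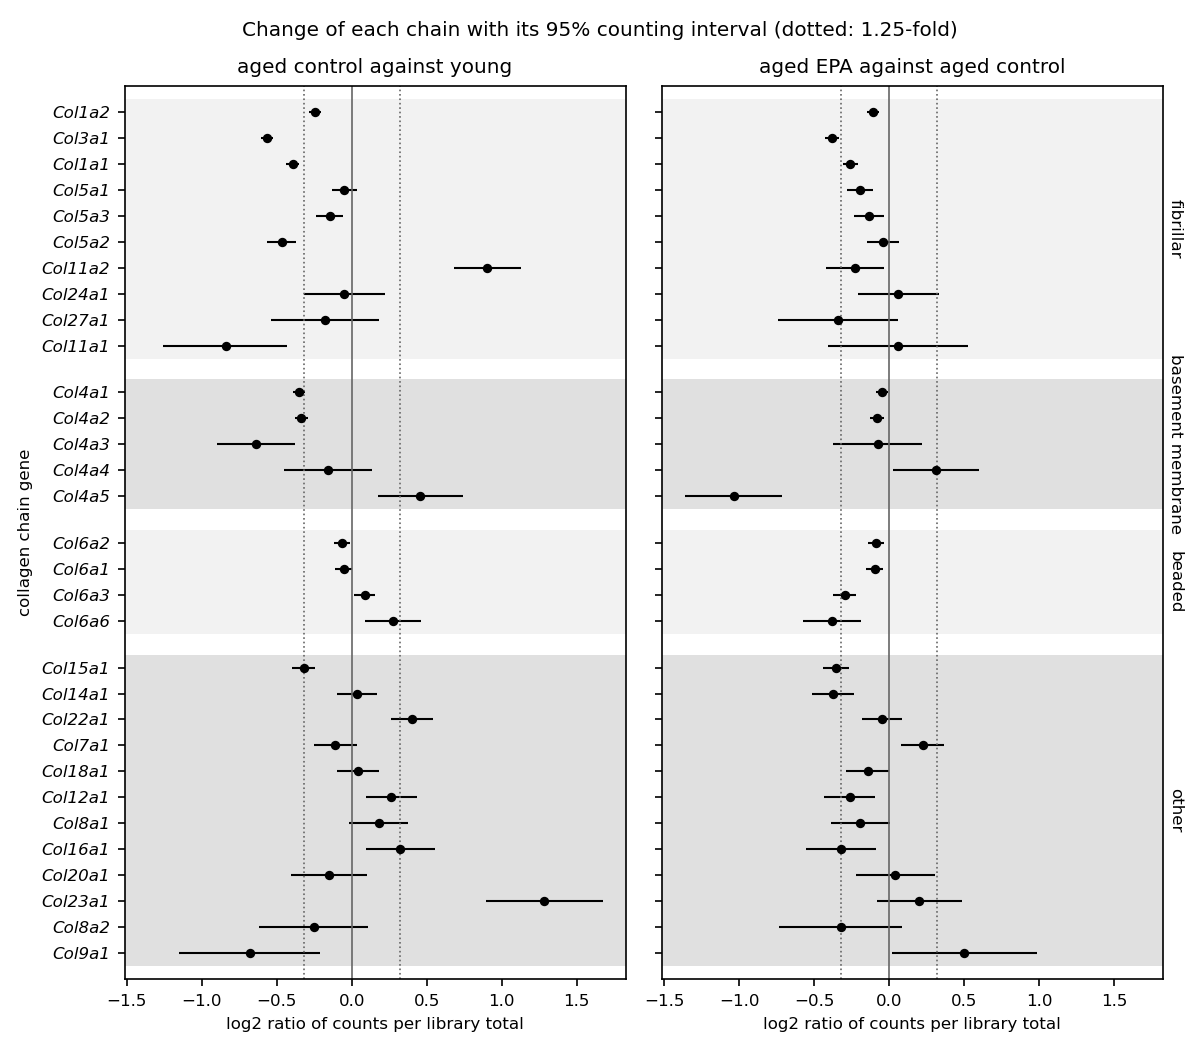
Log2 ratio of counts per library total for each of the 31 chains, by class, in aged control against young (left) and aged EPA against aged control (right), with bars for the 95% counting interval and dotted lines at 0.32 on either side of 0. Col3a1 lies below 0 in both panels (-0.57 and -0.38), Col4a1 and Col4a2 lie near the lower dotted line on the left and near 0 on the right, and Col4a5 lies at 0.45 on the left and -1.04 on the right.

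The order young, aged control, aged EPA from high to low was found in 16 of 31 chains (51.6%) and in 22.1% of all compared genes. With CPM over each library's own total, it was found in 14 chains (45.2%) and in 18.0% of all genes. The aged EPA library was the lowest of the 3 for 24 chains (77.4%, against 37.4% of all genes), or 21 chains (67.7%, against 29.96%) with own totals. The aged control library was the highest for 10 chains (32.3%), near the 33.7% of all genes. These shares describe the 3 libraries, since chains of one family are often made by the same cells and are not independent.

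Summed over the family, collagen chains took 0.150% of all counts in young, 0.126% in aged control and 0.113% in aged EPA. The summed log2 count ratio was -0.25 (-0.27 to -0.24) for aged control against young and -0.16 (-0.17 to -0.14) for aged EPA against aged control. Col1a1, Col1a2, Col3a1, Col4a1 and Col4a2 made up 64.4%, 59.1% and 58.9% of collagen counts in young, aged control and aged EPA. Without these 5 chains the sum differed by -0.05 (-0.08 to -0.03) between aged control and young and by -0.15 (-0.18 to -0.13) between the aged libraries. The first difference of the family total therefore lay mostly in the 5 abundant chains, and the second was of like size with and without them.

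The composition of the family differed accordingly. Fibrillar chains gave 47.9%, 44.8% and 43.1% of collagen counts in young, aged control and aged EPA, and beaded chains 16.7%, 19.7% and 19.8%. Basement membrane chains gave 25.6%, 24.2% and 25.8%. Per kilobase of longest transcript, the scale on which genes can be compared in level, Col3a1 led in young at 38.9 CPM per kilobase, just above Col1a2 at 38.1. In the aged libraries Col1a2 led, at 33.0 in aged control and 29.2 in aged EPA, with Col3a1 at 26.96 and 19.8 and Col4a1 at 26.1 and 24.2 CPM per kilobase. Col3a1 was thus the first of the family in young, the second in aged control and the third in aged EPA.

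**Figure D4:**
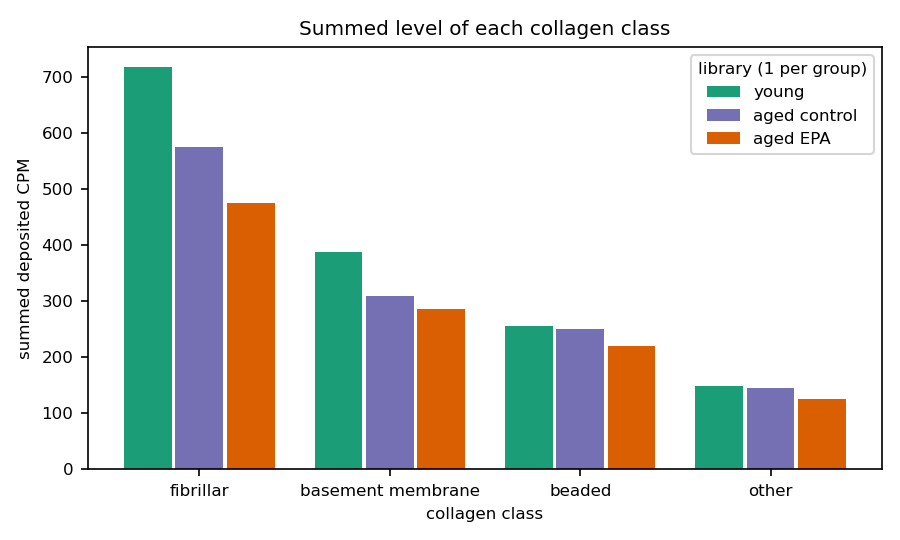
Summed deposited CPM of each collagen class in each library (young, aged control, aged EPA), as bars from 0 without error bars, since each group is 1 library. Fibrillar chains go from 718 to 575 and 475 CPM and basement membrane chains from 387 to 309 and 286 CPM, while beaded chains are at 255, 250 and 220 CPM.

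Genes that act on collagen were described from 6 lists by the same limit. The trend with transcript length was not subtracted for the lists. Its rho across genes was 0.28 for aged control against young and -0.22 for aged EPA against aged control. These lists were read from deposited values, which in aged EPA differ from own-total CPM by as much as -2.98%, so small medians between the aged libraries carry no direction. By this limit 10.4% of all genes were lower and 9.13% higher in aged control than young, and 7.38% lower and 5.38% higher in aged EPA than aged control. Of 18 compared genes for the folding and modification of chains inside the cell, 2 (11.1%) were lower (P3h4 and Sparc) and 1 (5.56%) was higher in aged control than young, near the shares of all genes (10.4% and 9.13%), with a median of 0.01. In aged EPA against aged control 0 passed the limit (median -0.06), beside 7.38% and 5.38%. Sparc, which binds collagen and is needed for its deposition, was at 291 CPM in young, 229 in aged control and 210 in aged EPA, a log2 count ratio of -0.38 (-0.41 to -0.35) for aged control against young. P3h4, a partner of the prolyl 3-hydroxylases, was at 7.85, 5.23 and 5.39 CPM, the hydroxylase P3h2 at 6.56, 7.67 and 8.43 CPM, and Ppib, a prolyl isomerase that helps the triple helix form, at 21.6, 18.3 and 16.2 CPM. The higher gene was the lysyl hydroxylase Plod2 at 2.54, 4.34 and 3.47 CPM, which is named after its values were seen. Serpinh1, the collagen chaperone, was at 71.3, 67.0 and 60.7 CPM and lay within the limit, also named after its values were seen.

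Outside the cell, procollagen is trimmed and its fibrils are cross-linked. Of 10 compared genes for these steps, 0 were lower and 1 (10%) was higher in aged control than young (Loxl4), beside 10.4% and 9.13% of all genes. In aged EPA against aged control 2 were lower as deposited (Loxl2 and Adamts14), beside 7.38% of all genes, and 0 with own library totals, beside 5.84%. Loxl4 and Adamts14 are named after their values were seen. Pcolce, an enhancer of procollagen trimming, was at 54.0 CPM in young, 48.5 in aged control and 38.7 in aged EPA, the order of the fibrillar chains. Its log2 count ratio was -0.15 (-0.22 to -0.07) and then -0.25 (-0.34 to -0.17). The cross-linking enzyme Lox was at 25.3, 20.9 and 23.2 CPM, Loxl2 at 18.6, 21.8 and 17.1 CPM and Loxl3 at 7.19, 5.72 and 6.21 CPM. Lox and Loxl3 were lowest in aged control and Loxl2 was highest there.

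Small proteoglycans that bind to collagen fibrils had the opposite sign to the fibrillar chains in aged control against young. Of 10 genes, 3 (30%) were higher and 0 lower (Lum, Kera and Podn), beside 9.13% and 10.4% of all genes. All 10 were above 0 as deposited, while 52.4% of all genes were below 0, and the median was 0.20. By counts over own library totals Dcn, the most abundant of them and named after its values were seen, was just below 0 (-0.01, -0.03 to 0.01). The same 3 genes were lower in aged EPA than aged control, beside 7.38% of all genes, with log2 count ratios of -0.29, -0.39 and -0.39. With own library totals Lum was within the limit, which left 2 lower, beside 5.84%. Lum was at 28.6 CPM in young, 39.0 in aged control and 30.4 in aged EPA. Podn was at 10.0, 17.3 and 13.2 CPM, Kera at 4.93, 6.66 and 5.03 CPM and Prelp at 81.6, 92.7 and 104 CPM. Lum is also among the fibroblast markers above, and Kera and Fmod among 8 tenocyte markers that summed to 308, 354 and 351 CPM with none at 0. Of the 7 compared tenocyte markers, 1 was lower (Chodl) and 3 higher (Tnmd, Scx and Kera) in aged control than young, beside 10.4% and 9.13%, and 1 was lower (Kera) and 1 higher (Comp) in aged EPA than aged control, beside 7.38% and 5.38%. The tendon membrane protein gene Tnmd was at 5.23, 9.51 and 7.66 CPM and the tendon transcription factor gene Scx at 4.48, 6.29 and 5.95 CPM. Comp, a matrix protein of tendon and cartilage, was at 9.60, 11.8 and 17.3 CPM and Chodl at 11.04, 8.26 and 8.37 CPM. The part of tendon cells in these values was not tested.

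Laminins and other partners of type IV collagen in the basement membrane were mostly above 0 in aged control against young, unlike Col4a1 and Col4a2. Of 13 genes, 0 were lower and 0 higher by this limit in aged control against young (median 0.12), beside 10.4% and 9.13% of all genes, while with own library totals 1 was higher (Lama4), beside 8.78%. In aged EPA against aged control 0 passed the limit (median -0.03), beside 7.38% and 5.38%. Hspg2, which encodes perlecan, was at 166 CPM in young, 190 in aged control and 163 in aged EPA. Lama2, the alpha chain of muscle laminin, was at 49.0, 52.0 and 60.6 CPM, Lama4 at 34.1, 42.4 and 43.3 CPM and Lamc1 at 124, 109 and 128 CPM. In aged control against young, 9 of the 13 were above 0 and 4 below, beside 52.4% of all genes below 0. Of the 5 compared type IV chains, 4 were below 0 (Col4a4 within counting error) and Col4a5 was above 0 (log2 change 0.39).

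Collagen receptors were mostly above 0 in aged control against young, where 5 of 12 compared genes were higher (Itgb1, Itga11, Ddr1, Ddr2 and Antxr1) and 0 lower, beside 9.13% and 10.4% of all genes, with a median of 0.19. Itgb1, the beta chain of the collagen-binding integrins and of many other integrins, was at 116 CPM in young, 191 in aged control and 125 in aged EPA. Ddr2, a receptor kinase for fibrillar collagen, was at 26.4, 41.6 and 34.2 CPM, and its relative Ddr1 at 11.8, 17.3 and 20.1 CPM. Itga11, the integrin chain that pairs with Itgb1 on fibroblasts, was at 8.55, 12.0 and 11.4 CPM. In aged EPA against aged control, 3 receptors were lower (Itgb1, Itga1 and Itga10) and 0 higher, beside 7.38% and 5.38% of all genes, with a median of -0.20. Antxr1, Itga1 and Itga10 are named after their values were seen.

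Of 13 compared genes for collagen breakdown and its inhibitors, 1 (7.69%) was lower in aged control than young (Timp1) and 0 were higher, beside 10.4% and 9.13% of all genes. With own library totals Mmp3 was also higher, and Timp1 and Mmp3 are named after their values were seen. Between the aged libraries 0 passed the limit, beside 7.38% and 5.38%. The medians were 0.02 and -0.02. The gelatinase gene Mmp9 was at 6.28 CPM in young, 7.58 in aged control and 7.53 in aged EPA. Timp2 and Timp3, inhibitors of matrix metalloproteinases, were at 227, 276 and 275 CPM and at 258, 295 and 259 CPM, and Fap, a protease of activated fibroblasts, at 7.99, 7.06 and 6.54 CPM. Timp1 was at 2.40, 1.053 and 0.778 CPM.

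**Figure D5:**
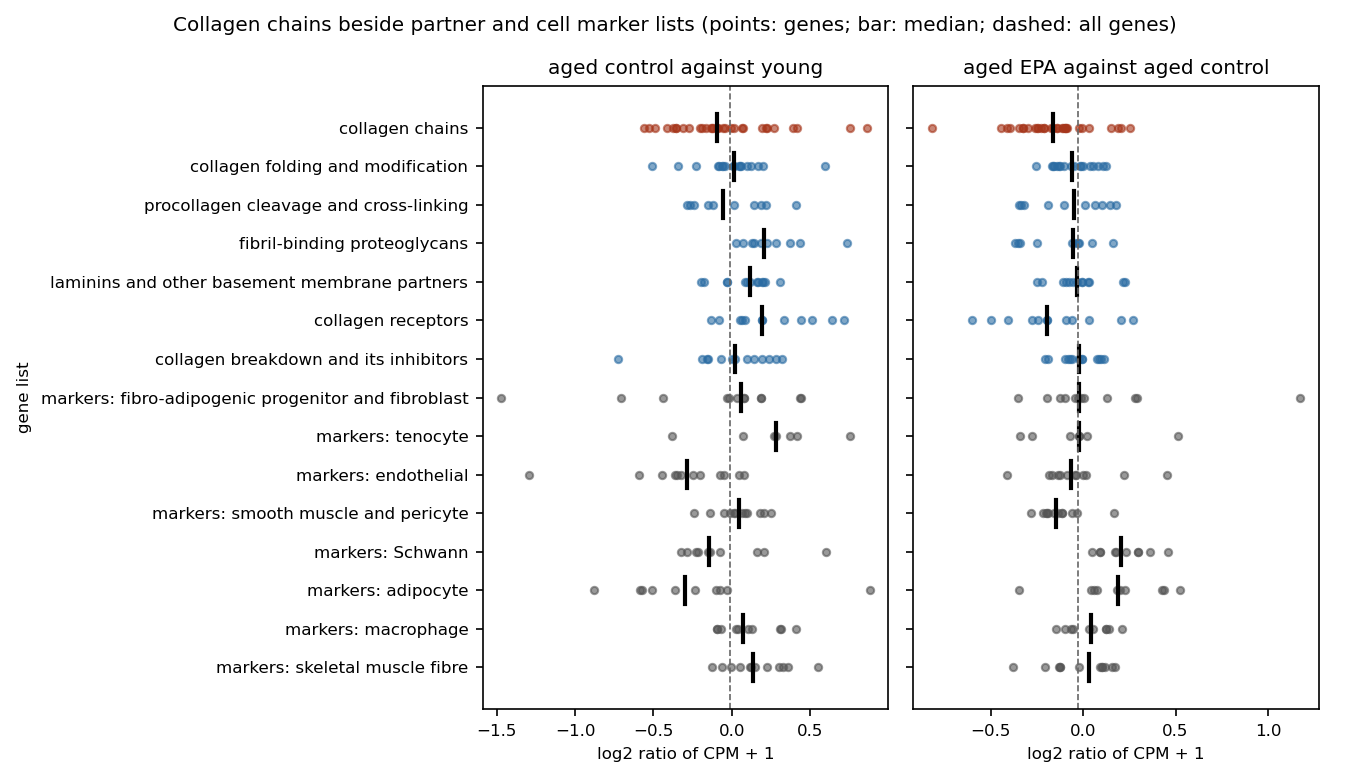
Log2 ratio of CPM + 1 of each compared gene (points) and the list median (bar) for the collagen chains, 6 lists of genes that act on collagen and 8 lists of cell markers, in aged control against young (left) and aged EPA against aged control (right); the dashed line is the median of all compared genes. The median of the chains is -0.10 on the left and -0.16 on the right, that of proteoglycans 0.20 and -0.05, that of receptors 0.19 and -0.20 and that of endothelial markers -0.29 and -0.07. For fibroblast markers the medians are 0.06 and -0.02, for tenocyte 0.28 and -0.02, and for smooth muscle and pericyte markers 0.04 and -0.15. They are -0.15 and 0.20 for Schwann, -0.30 and 0.19 for adipocyte, 0.07 and 0.04 for macrophage and 0.13 and 0.03 for muscle fibre markers.

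The 13 chains under a mean of 1 CPM were not compared. Col4a6, Col6a4 and Col10a1 were at 0 in all 3 libraries. The other 10 (Col2a1, Col6a5, Col9a2, Col9a3, Col13a1, Col17a1, Col19a1, Col25a1, Col26a1 and Col28a1) had between 0 and 84 counts in a library. Just outside the limit, Col13a1, a membrane-spanning chain of the neuromuscular junction, was at 1.06 CPM in young, 0.505 in aged control and 1.27 in aged EPA. The values of Col28a1 were 1.499, 0.530 and 0.780 CPM. Just inside were Col9a1 and Col11a1, given above. Col6a5, of the beaded class, had 4, 41 and 14 counts in young, aged control and aged EPA, and Col26a1 had 29, 28 and 6. Col9a2 had 15, 18 and 0 counts and Col9a3 had 22, 0 and 0, so that these cartilage chains were at or under the limit of 3 counts in at least 1 aged library.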

How the data were processed

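Gene expression was measured by RNA sequencing of 3 pooled RNA libraries, 1 per group (young, aged control, aged EPA). The deposited values are CPM per gene, as the authors calculated them, per the file headers. HISAT2 2.1.0, StringTie 1.3.4d, R 3.5.0 and build GRCm38 (mm10) are named per the submitters' processing notes. Their roles, the annotation, the counting and the use of strand are not given in the sources used here.

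All deposited CPM above 0 became whole counts with 1 of 5 divisors between 56034275 and 57687235 (largest distance from a whole number 3.03e-09), and the divisor differed between genes and tables. The libraries held 57386394 (young), 57622886 (aged control) and 55969822 (aged EPA) recovered counts. The 33 rows that repeated the symbol of another row were added to it. Genes whose mean reached 1 CPM were compared by the log2 ratio of CPM + 1, which understates changes of low genes, and counted as lower or higher from a difference of 0.32. Log2 count ratios use recovered counts and each library's own total, with exact Clopper-Pearson intervals conditional on the sum of both counts. These intervals and the limit of 3 counts at 0 cover counting error only. With 1 library per group there was no test. Positions and transcript lengths are from GENCODE M21 on GRCm38, and lengths are those of the longest transcript. Python 3.11.15, numpy 2.4.6, scipy 1.17.1 and pandas 2.3.3 were used, and the counting and interval code was tested on simulated data.

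All 31 compared chains were named. From each of the 6 lists of genes that act on collagen and from the fibroblast, endothelial and tenocyte markers, the up to 4 with a mean of at least 5 CPM and the largest change in any comparison were named. No gene of the other marker lists is named. Other genes are named after their values were seen, also Pdgfra, a defining cell marker. The chains and lists were chosen with earlier results of these data known. Alternatives were pseudocounts of 0.1 and 5, no filter, a mean minimum of 5 CPM, median-of-ratios scaling or scaling by a trimmed mean of log ratios, totals without mitochondrially encoded and the 20 most abundant genes, own library totals, subtraction of the length trend, and limits of 1.5-fold and 2-fold. Subtraction of the trend with GC content was chosen after seeing the data, as were own library totals for the lists of other genes and the sum of fibroblast markers without Gsn.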

Additional observations from a re-analysis of the deposited data

How the results depend on the processing

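No paired analysis was possible because each group has 1 library, and no result could be checked without a library. The median log2 change over all chains kept its direction under all 30 alternatives run, from -0.18 to -0.06 for aged control against young, from -0.21 to -0.11 for aged EPA against aged control and from -0.24 to -0.18 for aged EPA against young. Numbers of chains past the limit of 0.32 on the log2 scale moved more. For aged control against young, 7 lower chains became 4 with a pseudocount of 5, beside 4.67% of all genes. They became 4 with a mean of at least 5 CPM, which leaves 21 chains (8.83% of all genes), 0 at 1.5-fold (2.5%) and 0 at 2-fold (0.841%). They became 8 with own library totals (10.5%), 8 with the length trend subtracted (8.61%) and 8 with totals without mitochondrially encoded and the 20 most abundant genes (11.3%). Without a filter 10 of 41 were lower (7.95%). The 4 higher chains became 2 with a mean of at least 5 CPM (beside 7.5% of all genes), 2 at 1.5-fold (2.69%) and 0 at 2-fold (0.895%). They became 3 with a pseudocount of 5 (4.48%), 3 with the length trend subtracted (8.95%), and 5 without a filter (7.15%). With the GC trend subtracted they became 5 (9.91%). For aged EPA against aged control, 7 lower chains became 4 with a pseudocount of 5 (beside 2.90% of all genes) and 4 with trimmed-mean scaling (6.31%). They became 2 with the length trend subtracted (6.05%), 1 at 1.5-fold (Col4a5, beside 1.91%) and 0 at 2-fold (0.640%). They became 8 with a pseudocount of 0.1 (10.2%) and 10 of 41 without a filter (5.88%). The 0 higher chains became 1 with a pseudocount of 0.1 (Col9a1, beside 7.73%) and 1 without a filter (Col13a1, beside 4.52%). For aged EPA against young, 13 lower chains became 8 with a pseudocount of 5 (beside 5.18% of all genes) and 8 with a mean of at least 5 CPM (9.93%). They became 4 at 1.5-fold (2.96%), 0 at 2-fold (0.802%) and 17 of 41 without a filter (8.69%). The 2 higher chains became 1 with a mean of at least 5 CPM (6.05%), 1 at 1.5-fold (2.40%) and 1 at 2-fold (Col23a1, beside 0.802%). With Col22a1 they became 3 with a pseudocount of 0.1, median-of-ratios or trimmed-mean scaling, or own totals. The same 3 were higher with the length or GC trend subtracted (beside 8.71% to 9.54% over these alternatives). The stricter limits and filters leave fewer chains by construction, and for trimmed-mean scaling and the length trend the cause was not tested. With the trend with GC content subtracted, an alternative chosen after seeing the data, the lower chains numbered 7, 7 and 13 in the 3 comparisons. Among all genes 9.55%, 5.99% and 9.05% were then lower. Of the log2 changes of single chains, 870 of 900 stayed within their counting interval of the main value. These intervals belong to count ratios with own library totals, and some main values lie outside them. For Col3a1 between the aged libraries the main value was -0.44 and the interval -0.43 to -0.33. Counting error limits chains under 5 CPM most: for Col4a4 in aged control against young the interval runs from -0.45 to 0.13.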
